A study of Mus musculus with 24 samples.

Results

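Transcripts of 10 glycolytic enzymes were followed in the mouse heart after a single treadmill run at one of 2 times of day. The genes were taken by symbol, through the Ensembl gene identifier of each row. They were the hexokinases Hk1 and Hk2, the phosphofructokinases Pfkm and Pfkl, the bifunctional enzymes Pfkfb2 and Pfkfb3, the aldolase Aldoa, the phosphoglycerate kinase Pgk1 and the lactate dehydrogenases Ldha and Ldhb. These are 10 of the 52350 genes counted. They lie on mouse chromosomes 1 (Pfkfb2, ENSMUSG00000026409), 2 (Pfkfb3, ENSMUSG00000026773), 6 (Hk2 and Ldhb), 7 (Aldoa and Ldha), 10 (Hk1 and Pfkl), 15 (Pfkm) and X (Pgk1). A second row that also carried the symbol Aldoa held 0 to 7 reads per library and was kept apart, so that 11 rows stand behind the 10 genes.

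The hearts came from male wild-type C57Bl/6 mice, 12 weeks of age, kept under a 12:12 light:dark cycle. Time is given as Zeitgeber time, in which ZT0 is lights on and ZT12 is lights off, the start of the active phase of a mouse. The 4 groups were ZT12-EX and ZT0-EX, which ran for 60 min at 10 m/min and 0% grade, and their sedentary controls ZT12-SED and ZT0-SED. Each group had 6 hearts, given as biological replicates, with replicates 1 to 3 on one flow cell and 4 to 6 on another. All the mice, controls included, were wild type, mice handled in the dark phase were under red light. How long after the run the heart was taken is not stated in the labels.

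Glycolysis splits glucose into pyruvate and yields ATP without oxygen. Hexokinase traps glucose in the cell as glucose 6-phosphate, phosphofructokinase commits the sugar to the pathway, and lactate dehydrogenase interconverts pyruvate and lactate at its end. The PFKFB enzymes make and remove fructose 2,6-bisphosphate, the strongest allosteric activator of phosphofructokinase. The working heart draws most of its ATP from fatty acids, and it raises its use of glucose and lactate during exercise. Several of these enzymes have isoforms typical of one tissue: PFKM of muscle, PFKL of liver, the lactate dehydrogenase B subunit of heart and the A subunit of fast skeletal muscle.

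Total counts per library were 9697334 to 23067191, and mitochondrial transcripts took 2.70% to 55.1% of them. The 10 genes together took 0.0964% of the counts in the library ZT12-SED 1, the lowest, and 0.682% in ZT0-EX 5, the highest. Levels are given as CPM, the read count scaled to a fixed library total, with library sizes adjusted by the trimmed mean of M-values (TMM). In these whole-heart samples, fewer cells of a type and less RNA per cell cannot be told apart. Heart muscle markers were abundant in every library, at a mean of 10.3 to 13.4 on the log2 CPM scale over 8 markers. Atrial markers varied far more, with a mean over 4 markers from 1.62 in ZT12-SED 2 to 10.6 in ZT12-EX 4. Their group medians were 9.54 in ZT12-EX, 7.96 in ZT12-SED, 8.23 in ZT0-EX and 7.69 in ZT0-SED. The part of atrial tissue in the levels of the 10 enzymes was not tested. The libraries differed in 3 further ways that touch the results. On flow cell 2, 6 libraries, which were ZT12-EX 6, ZT12-SED 6, ZT0-EX 4, 5 and 6 and ZT0-SED 6, held fast skeletal muscle transcripts. A second difference lay in base composition. Each gene's log2 CPM, minus its mean over the 24 libraries, was correlated with GC content across genes (Spearman rho). In the 6 ZT12 libraries of flow cell 1 rho was -0.81 to -0.57, whereas on flow cell 2 it was 0.43 to 0.69 in every library. These values are relative to the other libraries, and do not describe how level itself goes with GC content. The third was that the libraries ZT12-EX 4, ZT12-SED 1 and ZT12-SED 2 were the least like the rest.

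Levels were ranked per kilobase of annotated exon, with all exons of a gene merged. Ldhb was then the most abundant of the 10, at a mean of 779 CPM per kb over the 24 libraries. Aldoa followed at 454 CPM per kb. Without division by length Aldoa was the higher on average, at 1323 CPM against 1223 CPM for Ldhb, so the order depends on the lengths used. Ldhb was first in 24 of 24 libraries and Aldoa was the next in 23, the exception being ZT12-SED 1, in which Ldha and Pgk1 also exceeded Aldoa. Pfkm at 164, Ldha at 143 and Pgk1 at 114 CPM per kb came next, and their order was not fixed: Pfkm exceeded Ldha in 14 of 24 libraries, and Ldha exceeded Pgk1 in 17. Pfkm averaged 120 and Ldha 125 CPM per kb on flow cell 1, against 209 and 162 on flow cell 2. Hk2 averaged 24.95 CPM per kb and lay above Pfkl in 24 of 24 libraries. Pfkl at 9.15 and Hk1 at 8.08 CPM per kb had no fixed order, with Pfkl higher in 13 of 24. On average Pfkl lay below Hk1 on flow cell 1, at 4.78 against 5.35 CPM per kb, and above it on flow cell 2, at 13.5 against 10.8. Pfkfb2 averaged 5.12 and Pfkfb3 1.48 CPM per kb, and Pfkfb2 was the higher in 23 of 24 libraries. Within both enzyme pairs with a classic heart or muscle form, that form was thus the more abundant: Ldhb over Ldha and Pfkm over Pfkl.

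**Figure D1:**
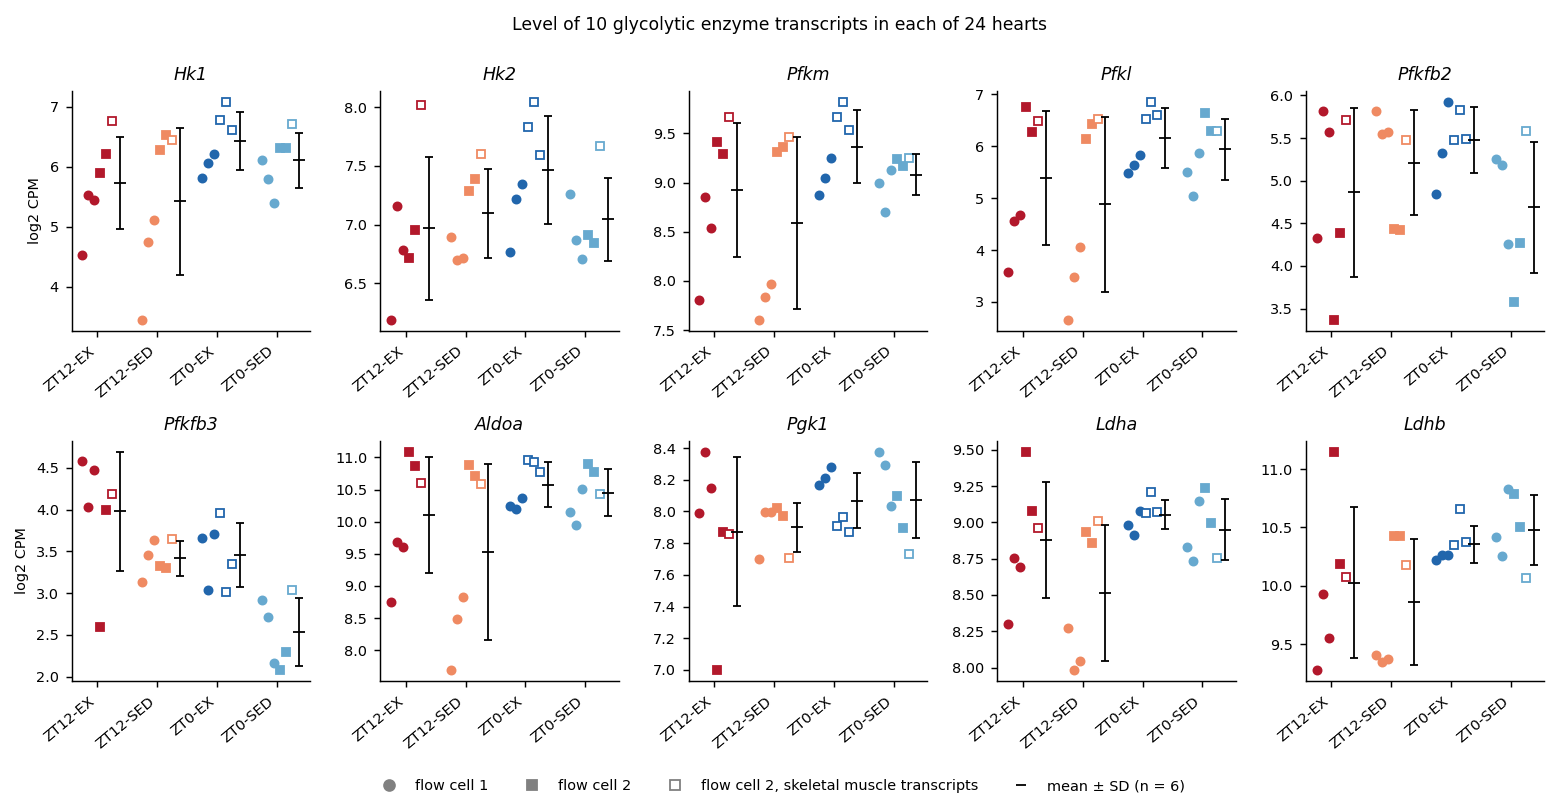
Level of each of the 10 transcripts in each heart, in log2 CPM (vertical axis), with the groups side by side. Circles are flow cell 1, squares flow cell 2, open squares the 6 libraries with skeletal muscle transcripts, and the black bars the mean ± SD of 6 hearts. Aldoa, Pfkl and Hk1 fall to their lowest levels in the ZT12 hearts of flow cell 1, while Pfkfb3 is lowest in ZT0-SED.

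Of the 15294 genes that passed a filter on low counts, 45 differed between ZT12-EX and ZT12-SED at an adjusted p below 0.05, which is 0.294%. None of the 10 enzymes was among them. The test was edgeR's quasi-likelihood test with flow cell as a term and Benjamini-Hochberg adjustment over all tested genes, and all 10 enzymes passed the filter. At ZT0, 165 genes (1.08%) differed between ZT0-EX and ZT0-SED, and again 0 of the 10 enzymes did. At an unadjusted p below 0.05, 2 of the 10 passed at ZT12 (Pfkfb3 and Ldha), beside 16.4% of all tested genes, and 1 at ZT0 (Pfkfb3), beside 10.4%. The median log2 fold of the 10 after exercise was 0.28 at ZT12 and 0.22 at ZT0, beside 0.06 and -0.01 over all tested genes. With offsets for GC content the medians of the 10 were 0.09 and 0.20, beside 0.02 and -0.03. In that fit 0 of the 10 passed at ZT12 at an unadjusted p below 0.05. Without the 3 libraries least like the rest the medians were 0.04 and 0.23, beside 0.0002 and -0.01. For the fold after exercise itself, rho with GC content was 0.58 at ZT12 and 0.02 at ZT0 (Spearman, across genes). The test of the difference between both responses to exercise called 0 of the 10 enzymes and 0 of all 15294 genes with edgeR (0%), while 1226 genes passed at an unadjusted p below 0.05 and DESeq2 called 5.

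Between the times of day, 795 genes (5.2%) differed in sedentary mice, and 1 of the 10 enzymes was among them: Pfkfb3 was higher at ZT12. In exercised mice 252 genes (1.65%) differed, with 0 of the 10 enzymes. The median log2 fold of the 10, ZT12 over ZT0, was -0.46 in sedentary and -0.42 in exercised mice, beside -0.01 and 0.02 over all tested genes. Of the 10 enzymes, 7 had negative values in sedentary mice and 9 in exercised mice. Both of these comparisons and those of exercise share groups, so their values are not independent of each other. Groups that did not overlap in CPM were seen for 1 of the 10 enzymes, Pfkfb3 between ZT12-SED and ZT0-SED, where 1.7% of all tested genes did not overlap. In the other comparisons 0 of the 10 separated, beside 1.1% of all tested genes between ZT12-EX and ZT0-EX, 0.262% between ZT12-EX and ZT12-SED and 1.6% between ZT0-EX and ZT0-SED.

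**Figure D2:**
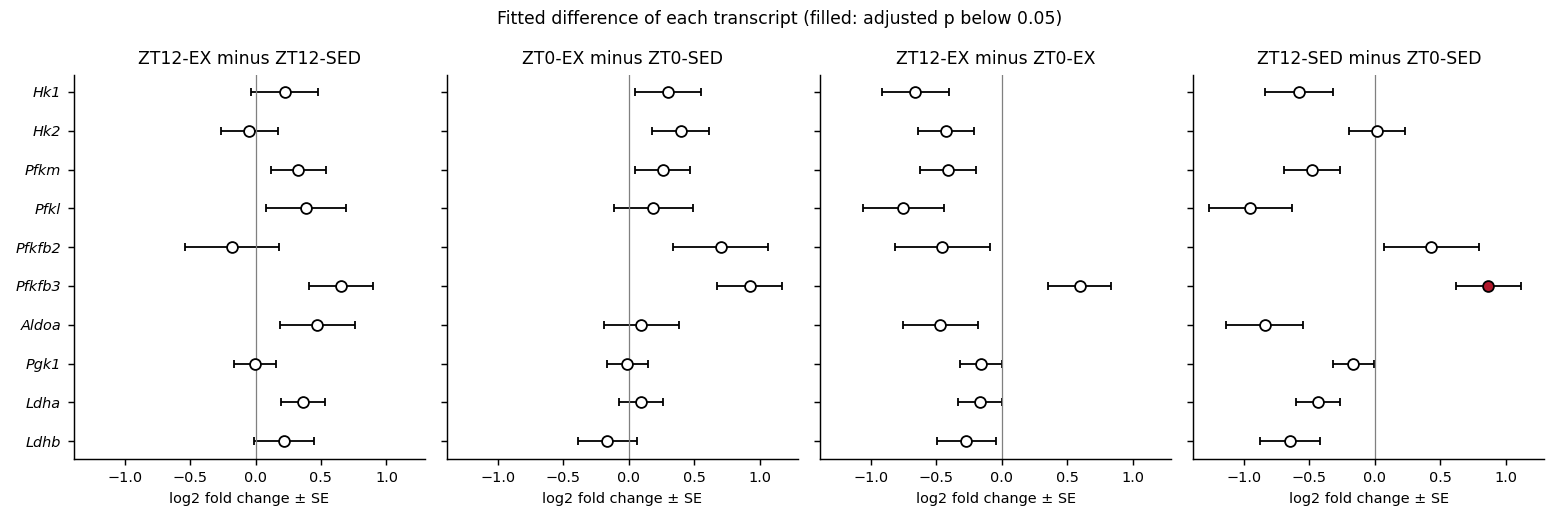
Fitted log2 fold change ± SE (horizontal axis) of each of the 10 transcripts in 4 comparisons, with 6 hearts in each group. Pfkfb3 between ZT12-SED and ZT0-SED, at 0.86, is the one filled point, and it is the one transcript with a positive value between ZT12-EX and ZT0-EX.

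Pfkfb3 encodes the bifunctional enzyme with the highest ratio of kinase to phosphatase activity, and its gene is induced in many tissues by hypoxia and by growth signals. Its lowest, median and highest levels were 5.95, 17.2 and 23.8 CPM in ZT12-EX and 8.63, 10.4 and 12.4 CPM in ZT12-SED. At ZT0 they were 7.97, 11.3 and 15.4 CPM in ZT0-EX and 4.10, 5.62 and 8.11 CPM in ZT0-SED. Every ZT12-SED heart thus lay above every ZT0-SED heart, and the other pairs of groups overlapped. The means were 17.02 ± 6.30 CPM in ZT12-EX, 10.6 ± 1.53 CPM in ZT12-SED, 11.2 ± 2.97 CPM in ZT0-EX and 5.87 ± 1.69 CPM in ZT0-SED (SD, n = 6 each). Between 45 and 492 reads per library stand behind these values.

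In sedentary mice Pfkfb3 was 1.82-fold higher at ZT12 than at ZT0 (log2 fold 0.86 ± 0.25 SE, edgeR adjusted p = 0.0452, 6 of 6 ZT12 hearts above all ZT0 hearts). The log2 fold was 0.78 on flow cell 1 alone (edgeR adjusted p = 0.0302) and 0.90 on flow cell 2 alone, where the test on 3 hearts per group did not pass (edgeR adjusted p = 0.999). The call lay at the edge of the threshold. It held without ZT0-SED 6 (log2 fold 1.02, edgeR adjusted p = 0.0183), and it was lost when any one of the other 11 libraries, ZT12-SED 1 to 6 and ZT0-SED 1 to 5, was left out, at adjusted p of 0.0509 to 0.127 and log2 folds of 0.78 to 0.93. The direction was the same in all of these fits. With offsets for GC content the log2 fold was 1.14 (edgeR adjusted p = 0.0169). Over 14 alternative settings the log2 fold of Pfkfb3 was 0.70 to 1.14, and it passed in 8 of them (adjusted p of 0.00914 to 0.999).

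After exercise at ZT0, the log2 fold of Pfkfb3 was 0.93 ± 0.25 (SE, edgeR adjusted p = 0.0778), which missed the threshold. This fit takes the same spread for all groups. Around a linear fit to log2 CPM with the same terms, the median SD over genes was 0.33 at ZT0 and 0.47 at ZT12. All 3 ZT0-EX hearts of flow cell 1, at 8.07 to 13.0 CPM, lay above the 3 ZT0-SED hearts there, at 4.36 to 7.43 CPM. The groups overlapped on flow cell 2, at 7.97 to 15.4 CPM in ZT0-EX and 4.10 to 8.11 CPM in ZT0-SED. After exercise at ZT0, Pfkfb3 passed with DESeq2 (adjusted p = 0.0137), in an edgeR fit of the 2 ZT0 groups alone (adjusted p = 0.0336), without the 3 libraries least like the rest (edgeR adjusted p = 0.00776) and without ZT0-SED 6 (edgeR adjusted p = 0.0367). At ZT12 the log2 fold after exercise was 0.65 ± 0.25 (SE, edgeR adjusted p = 0.243). On flow cell 1 the ZT12-EX hearts, at 16.2 to 23.8 CPM, all exceeded the ZT12-SED hearts, at 8.63 to 12.3 CPM, whereas on flow cell 2 the library ZT12-EX 4 had the lowest level of its group. How many of all tested genes separate in this way, with 3 hearts per group on flow cell 1, was not counted at ZT0 or at ZT12. The difference between both responses was -0.27 ± 0.35 on the log2 scale (SE, edgeR adjusted p = 0.745). In exercised mice the log2 fold of ZT12 over ZT0 was 0.59 ± 0.24 (SE, edgeR adjusted p = 0.256).

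The annotated promoters of Pfkfb3 and of the other 9 genes are given as background to the comparison of times of day, since the clock proteins CLOCK and BMAL1 bind the palindromic E-box CACGTG and the hypoxia-inducible factors bind sites with the core ACGTG. RefSeq windows of 250 bases before to 50 bases after each annotated start (build GRCm38.p6) were searched on both strands, and 20 windows matched the 10 genes. CACGTG was in 4 of these 20, 1 each of Pfkfb2, Pfkfb3, Ldha and Pfkm, and in 7.15% of all 32851 windows. ACGTG, which every CACGTG also contains, was in 12 of the 20 windows and in 19.6% of all windows. A match says only that these letters are present. The window of Pfkfb3 with the E-box is chr2:11502041-11502340 on the minus strand, printed with every ACGTG on either strand in capitals. Its E-box begins at -53, counted with the annotated start as 0.
Pfkfb3 window: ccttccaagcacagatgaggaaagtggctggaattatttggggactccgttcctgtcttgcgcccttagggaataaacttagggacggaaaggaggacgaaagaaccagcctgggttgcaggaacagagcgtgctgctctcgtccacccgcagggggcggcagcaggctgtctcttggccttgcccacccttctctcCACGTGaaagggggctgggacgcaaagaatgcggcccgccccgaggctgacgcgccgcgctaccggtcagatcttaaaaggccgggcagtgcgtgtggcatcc
The 4 other E-boxes lie in the following stretches of 40 bases, with CACGTG in capitals. They begin at -22 in Pfkfb2, at -145 and -48 in Ldha and at -136 in Pfkm.
Pfkfb2 chr1:130715821-130715860, minus strand: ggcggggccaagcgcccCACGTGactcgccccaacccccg
Ldha chr7:46845642-46845681, plus strand: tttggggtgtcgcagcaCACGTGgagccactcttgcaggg
Ldha chr7:46845739-46845778, plus strand: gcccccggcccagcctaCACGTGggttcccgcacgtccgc
Pfkm chr15:98092436-98092475, plus strand: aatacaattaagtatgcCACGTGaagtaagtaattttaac

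Pfkfb2 encodes the isoform of this bifunctional enzyme that predominates in heart, where insulin and adrenergic signals raise its kinase activity by phosphorylation. The lowest, median and highest levels of Pfkfb2 were 10.2, 34.1 and 56.4 CPM in ZT12-EX, and 21.3, 45.4 and 56.4 CPM in ZT12-SED. They were 28.6, 44.7 and 60.8 CPM in ZT0-EX, and 11.8, 27.7 and 47.7 CPM in ZT0-SED. All pairs of groups overlapped. The log2 fold after exercise was -0.18 ± 0.36 at ZT12 (SE, edgeR adjusted p = 0.803) and 0.70 ± 0.36 at ZT0 (edgeR adjusted p = 0.504), and none of the 5 comparisons passed. Pfkfb2 overlaps Yod1, annotated on the opposite strand, which held 17.1% as many counts as Pfkfb2, and likewise Pfkm overlaps Senp1, with 2.15% as many counts. Pseudogene rows of Aldoa, Pgk1 and Ldha held at most 0.479% as many counts as their parent genes. Whether reads were counted by strand is not stated in the labels.

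On flow cell 2 the level of Pfkfb2 went with skeletal muscle transcripts. It was 44.3 to 56.6 CPM in the 6 libraries that held them and 10.2 to 21.6 CPM in the 6 that did not, with no overlap. On flow cell 1, where no library held them, Pfkfb2 ranged over 18.9 to 60.8 CPM, so levels as high were also found without these transcripts. How many of all tested genes separate the 6 libraries from the other 6 of flow cell 2 was not counted. Summed over 12 fast skeletal muscle markers, the 6 libraries had 829.5 to 3350 CPM (1229 in ZT12-EX 6, 1198 in ZT12-SED 6, 998 to 3350 over ZT0-EX 4 to 6 and 829.5 in ZT0-SED 6), against 59.9 to 202 CPM in the other 18. All of the 12 except Myl1, which the heart also expresses, were higher in each of the 6 libraries than in any of the other 18. Myh4, the fastest myosin heavy chain, was at 0 in 5 of the 18 and at most 0.757 CPM in them. All 3 ZT0-EX hearts of flow cell 2, but 1 in each of the other groups, held these transcripts. Without the 6 libraries, the log2 fold of Pfkfb2 after exercise at ZT0 was 0.39 (edgeR adjusted p = 0.784), and with the marker level as a covariate it was 0.27.

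Hk2 encodes the insulin-responsive hexokinase of heart and skeletal muscle. The lowest, median and highest levels of Hk2 were 72.7, 117 and 259 CPM in ZT12-EX, and 104, 138 and 194 CPM in ZT12-SED. They were 109, 178 and 264 CPM in ZT0-EX, and 105, 119 and 203 CPM in ZT0-SED. The groups overlapped in every comparison, and in each group the highest library was one with skeletal muscle transcripts. On flow cell 2 the 6 such libraries had 193 to 264 CPM and the other 6 had 105 to 167 CPM. How many of all tested genes separate in this way was not counted. The log2 fold of Hk2 after exercise was -0.05 ± 0.22 at ZT12 (SE, edgeR adjusted p = 0.921) and 0.40 ± 0.22 at ZT0 (edgeR adjusted p = 0.518). Without the 6 libraries the value at ZT0 was 0.27 (edgeR adjusted p = 0.782), and with the marker level as a covariate it was 0.18.

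**Figure D3:**
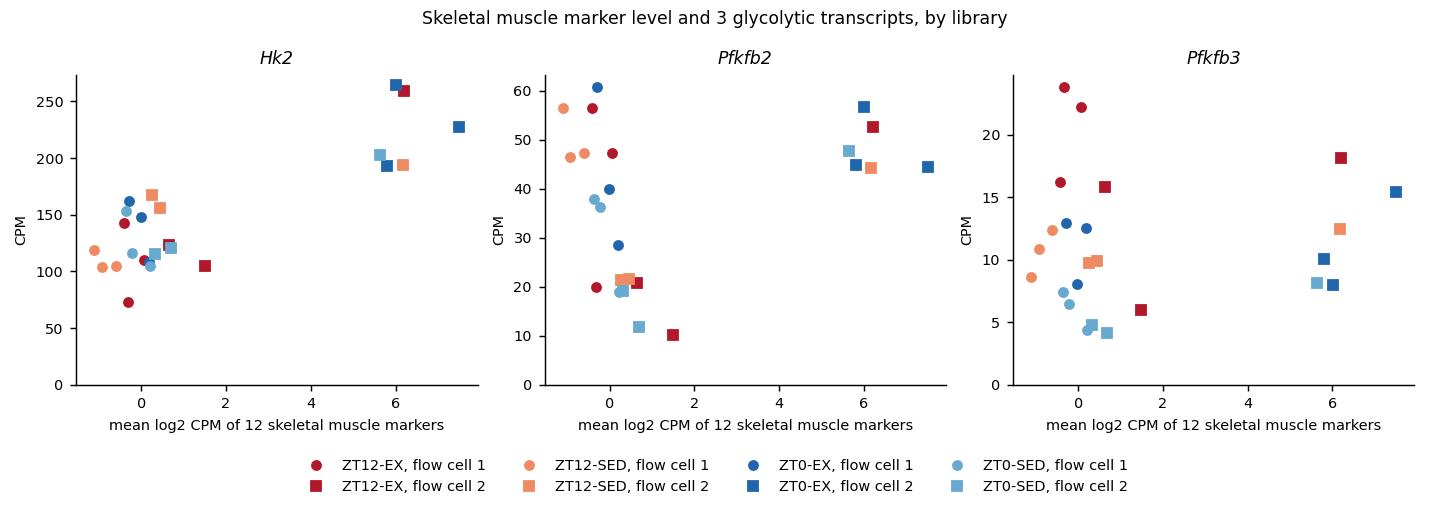
Level of Hk2, Pfkfb2 and Pfkfb3 in CPM (vertical axis) against the mean log2 CPM of 12 fast skeletal muscle markers (horizontal axis), 1 point per library. The 6 libraries at the right hold the highest levels of Hk2, at 193 to 264 CPM, whereas Pfkfb3 at the right spans 7.97 to 18.2 CPM, inside its range in the other libraries.

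Hk1, the hexokinase found in most tissues and bound to the outer mitochondrial membrane, had lowest, median and highest levels of 22.9, 53.0 and 109 CPM in ZT12-EX, and 10.7, 56.2 and 92.5 CPM in ZT12-SED. At ZT0 they were 56.2, 85.8 and 136 CPM in ZT0-EX, and 42.1, 74.1 and 105 CPM in ZT0-SED. The ZT12 groups reached lower than the ZT0 groups and overlapped with them. On flow cell 2 the mean of Hk1 was 107 CPM in the 6 libraries with skeletal muscle transcripts and 77.1 CPM in the other 6, with overlapping ranges. The log2 fold of Hk1 was -0.58 ± 0.26 between ZT12-SED and ZT0-SED (SE, edgeR adjusted p = 0.124) and -0.66 ± 0.25 between ZT12-EX and ZT0-EX (SE, edgeR adjusted p = 0.227).

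Pfkm and Pfkl encode the muscle and liver forms of phosphofructokinase. Pfkm had lowest, median and highest levels of 223, 543 and 811 CPM in ZT12-EX and 194, 442 and 707 CPM in ZT12-SED. In ZT0-EX they were 467, 676 and 906 CPM, and in ZT0-SED 415, 568 and 609 CPM. On flow cell 2 the mean of Pfkm was 764 CPM in the 6 libraries with skeletal muscle transcripts and 629 CPM in the other 6, with overlapping ranges. Pfkl, with fewer counts than Pfkm in all 24 libraries, had 11.9, 51.6 and 108 CPM in ZT12-EX and 6.14, 43.5 and 91.6 CPM in ZT12-SED. It had 44.6, 74.7 and 116 CPM in ZT0-EX and 33.0, 68.2 and 99.1 CPM in ZT0-SED. Both genes spanned a wide range in the ZT12 groups, in which the flow cells stood apart. Pfkl in ZT12-SED was 6.14 to 16.6 CPM on flow cell 1 and 70.4 to 91.6 CPM on flow cell 2. The log2 fold of ZT12-SED over ZT0-SED was -0.95 ± 0.32 for Pfkl (SE, edgeR adjusted p = 0.0679) and -0.48 ± 0.21 for Pfkm (SE, edgeR adjusted p = 0.127).

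Aldoa, the aldolase of muscle, cleaves fructose 1,6-bisphosphate. It had lowest, median and highest levels of 431, 1189.55 and 2177 CPM in ZT12-EX, and 206, 993 and 1877 CPM in ZT12-SED. At ZT0 it had 1177, 1530.1 and 1983 CPM in ZT0-EX, and 992, 1418 and 1911 CPM in ZT0-SED. In ZT12-SED the 3 hearts of flow cell 1 held 206 to 453 CPM and the 3 of flow cell 2 held 1533 to 1877 CPM. The log2 fold of Aldoa was -0.84 ± 0.29 between ZT12-SED and ZT0-SED (SE, edgeR adjusted p = 0.0741) and 0.47 ± 0.29 after exercise at ZT12 (SE, edgeR adjusted p = 0.389).

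Pgk1, which forms ATP from 1,3-bisphosphoglycerate, had the smallest spread of the 10 relative to its mean over the 24 libraries, at 256 ± 45.1 CPM (SD). It had lowest, median and highest levels of 128, 244 and 332 CPM in ZT12-EX, and 208, 253 and 259.7 CPM in ZT12-SED. At ZT0 it had 234, 269 and 311 CPM in ZT0-EX, and 212, 268 and 332 CPM in ZT0-SED. Its group medians lay within 244 to 269 CPM. Its log2 fold was -0.00 ± 0.16 after exercise at ZT12 (SE, edgeR adjusted p = 0.993), -0.01 ± 0.16 after exercise at ZT0 (SE, edgeR adjusted p = 0.987) and -0.16 ± 0.16 between ZT12-SED and ZT0-SED (SE, edgeR adjusted p = 0.466).

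Ldhb had lowest, median and highest levels of 619, 1025 and 2271 CPM in ZT12-EX, and 651, 917 and 1379.6 CPM in ZT12-SED. At ZT0 it had 1192, 1267 and 1616 CPM in ZT0-EX, and 1072, 1409 and 1815 CPM in ZT0-SED. Ldha had 315, 465 and 717 CPM in ZT12-EX and 252, 386 and 514 CPM in ZT12-SED. It had 481, 537 and 592 CPM in ZT0-EX and 426, 482 and 602 CPM in ZT0-SED. Medians of both subunits were lower at ZT12, and all pairs of groups overlapped. The log2 fold of ZT12-SED over ZT0-SED was -0.65 ± 0.23 for Ldhb (SE, edgeR adjusted p = 0.0762) and -0.44 ± 0.17 for Ldha (SE, edgeR adjusted p = 0.0914). After exercise the log2 fold of Ldhb was 0.22 ± 0.23 at ZT12 (edgeR adjusted p = 0.608) and -0.16 ± 0.23 at ZT0 (edgeR adjusted p = 0.777). That of Ldha was 0.36 ± 0.17 at ZT12 (SE, edgeR adjusted p = 0.295) and 0.09 ± 0.17 at ZT0 (edgeR adjusted p = 0.831).

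The lower levels of several enzymes at ZT12 in sedentary mice were seen on flow cell 1 and not on flow cell 2, and the difference between the flow cells was not itself tested. On flow cell 1 alone, 6 of the 10 enzymes passed as lower at ZT12 (Hk1, Pfkm, Pfkl, Aldoa, Ldha and Ldhb), in a fit in which 24.8% of all tested genes passed as lower. Pfkfb3 passed as higher there, beside 18.7% of all tested genes. The log2 folds on flow cell 1 were -2.01 for Pfkl, -1.85 for Aldoa, -1.23 for Hk1, -1.18 for Pfkm, -1.18 for Ldhb and -0.84 for Ldha. On flow cell 2 alone, 0 of the 10 passed, beside 0.231% of all tested genes, and the log2 folds of the same 6 genes were -0.06, -0.00, -0.04, 0.15, -0.15 and -0.09 in that order. The 3 ZT12-SED libraries of flow cell 1 carried 40.7% to 55.1% mitochondrial counts and rho with GC content of -0.81 to -0.76. The 3 ZT0-SED libraries of that flow cell carried 25.5% to 34.2% mitochondrial counts and rho of -0.50 to 0.24. Over all tested genes the fold of ZT12-SED over ZT0-SED itself fell with GC content (Spearman rho of -0.69 across genes). With offsets for GC content, fitted to each library, the log2 folds were -0.45 for Pfkl, -0.32 for Aldoa, -0.38 for Ldhb, -0.26 for Ldha, -0.14 for Pfkm and -0.50 for Hk1. None of the 6 passed there, beside 200 of all 15294 tested genes that passed as lower. With both flow cells but without ZT0-SED 6, a library with skeletal muscle transcripts, 4 of the 6 passed as lower at ZT12, beside 10.5% of all tested genes: Pfkl (log2 fold -1.07), Aldoa (-0.97), Ldhb (-0.77) and Ldha (-0.51), at edgeR adjusted p of 0.0290 to 0.0423. The libraries ZT12-SED 1 and 2 are among the 3 least like the rest, and without those 3 the median log2 fold of the 10 enzymes was -0.25. In that fit 0 of the 10 passed as lower, beside 187 of all 15680 tested genes. The mean level of the 8 heart muscle markers was also lower on flow cell 1 in ZT12-SED, at 10.3 to 11.0 on the log2 CPM scale, against 11.7 to 12.1 for ZT0-SED there. The part of mitochondrial share and of the heart muscle markers in these values was not tested.

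**Figure D4:**
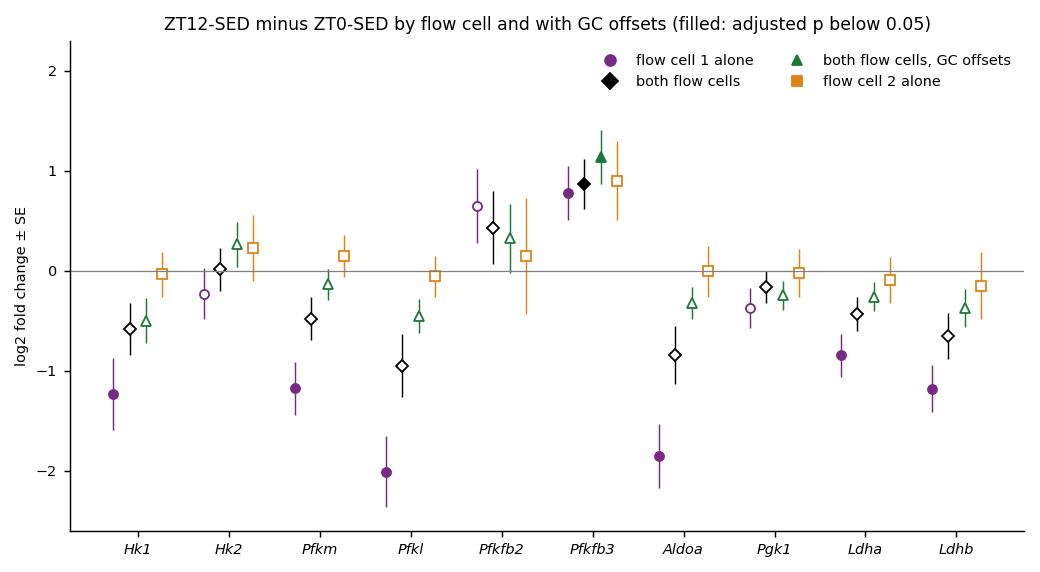
Log2 fold change of ZT12-SED over ZT0-SED ± SE (vertical axis) for each of the 10 transcripts, in flow cell 1 alone (3 hearts per group), both flow cells, both with GC offsets, and flow cell 2 alone. Pfkl and Aldoa stand at -2.01 and -1.85 on flow cell 1 and at -0.06 and -0.00 on flow cell 2, whereas Pfkfb3 is between 0.78 and 1.14 in all 4 fits.

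The same 6 enzymes had negative log2 folds between ZT12-EX and ZT0-EX on flow cell 1 alone, from -1.31 for Pfkl to -0.39 for Ldha. None of them passed, in a fit in which 190 of all 15071 tested genes did. On flow cell 2 alone their values ran from -0.45 for Hk1 to 0.15 for Ldhb. Without the 3 libraries least like the rest, 2 of the 10 passed between ZT12-EX and ZT0-EX with edgeR, beside 6.49% of all tested genes: Pfkl was lower (log2 fold -0.84, adjusted p = 0.0398) and Pfkfb3 higher (log2 fold 0.76, adjusted p = 0.0217).

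Ratios of paired isoenzymes compare transcripts inside one library, and they are given as a description without a test. Hk2 exceeded Hk1 in all 24 libraries, with a mean log2 ratio of counts of 1.24 ± 0.40 in ZT12-EX, 1.67 ± 0.97 in ZT12-SED, 1.04 ± 0.09 in ZT0-EX and 0.94 ± 0.31 in ZT0-SED (SD, n = 6 each). The highest value, 3.47, was that of ZT12-SED 1. Pfkl to Pfkm was -3.54 ± 0.69 in ZT12-EX, -3.72 ± 0.84 in ZT12-SED, -3.21 ± 0.23 in ZT0-EX and -3.14 ± 0.40 in ZT0-SED, and in each of the 4 groups it was lower in every library of flow cell 1 than in any of flow cell 2.

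Pfkfb3 to Pfkfb2 was -0.89 ± 0.76 in ZT12-EX, -1.81 ± 0.60 in ZT12-SED, -2.04 ± 0.59 in ZT0-EX and -2.17 ± 0.38 in ZT0-SED (SD, n = 6 each). ZT12-EX 1, at 0.26, was the one library of 24 in which Pfkfb3 had more counts than Pfkfb2. Ldha to Ldhb was -1.15 ± 0.28 in ZT12-EX and -1.34 ± 0.17 in ZT12-SED. It was -1.30 ± 0.09 in ZT0-EX and -1.53 ± 0.12 in ZT0-SED. At ZT0 the runners ranged from -1.45 to -1.19 and the sedentary mice from -1.68 to -1.31, and ZT0-SED 6, a library with skeletal muscle transcripts, was the one sedentary heart inside the range of the runners.

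**Figure D5:**
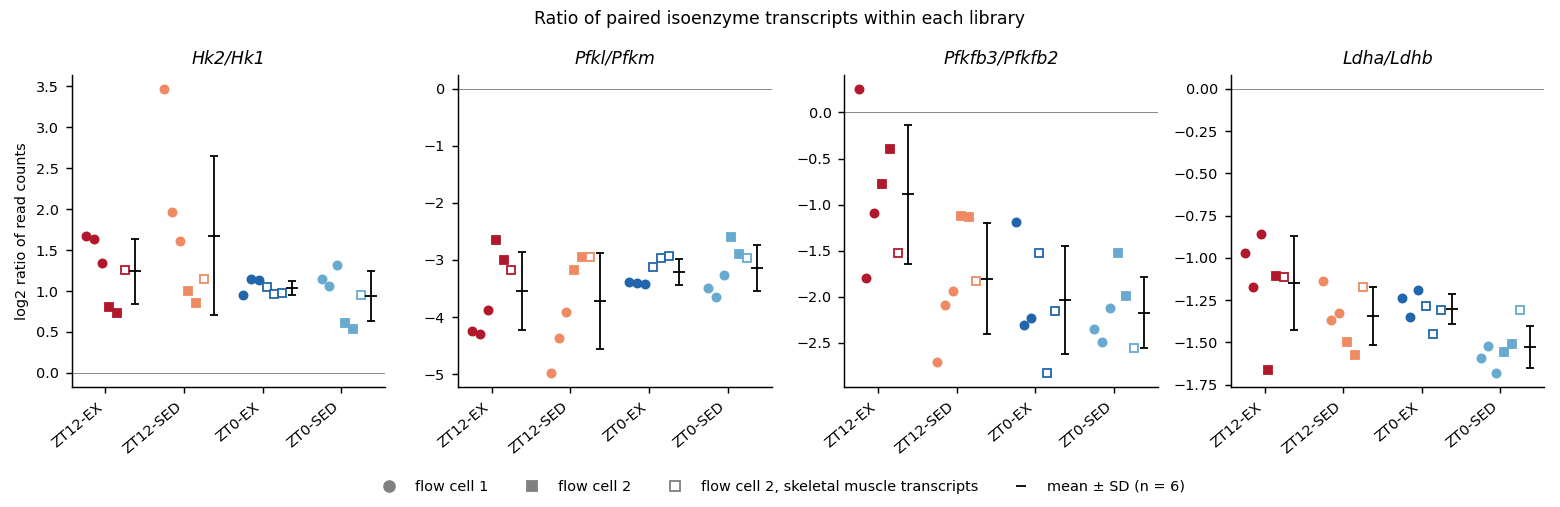
Log2 ratio of read counts of 4 isoenzyme pairs within each library (vertical axis), by group, with flow cells and skeletal muscle transcripts marked as in the plot of levels and black bars for the mean ± SD of 6 hearts. Pfkl to Pfkm separates the flow cells in all 4 groups, and Pfkfb3 to Pfkfb2 is highest on average in ZT12-EX, at -0.89.

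Of 26 other genes of the pathway, 19 passed the filter on low counts. None of the 19 passed after exercise at ZT12 or at ZT0, or in the test of the difference between both. Between ZT12-SED and ZT0-SED, 2 of 19 passed, 1 in each direction, beside 5.2% of all tested genes. Tpi1, the triose phosphate isomerase, was lower at ZT12 (log2 fold -0.81 ± 0.23 SE, edgeR adjusted p = 0.0434), and Pfkfb1, the bifunctional enzyme known from liver and skeletal muscle, was higher (log2 fold 0.64 ± 0.19 SE, edgeR adjusted p = 0.0498). Tpi1 was lost with GC offsets (log2 fold -0.50, edgeR adjusted p = 0.0724), and so was Pfkfb1 (log2 fold 0.44, edgeR adjusted p = 0.213). Between ZT12-EX and ZT0-EX, 1 of 19 passed: Pfkp, the platelet form of phosphofructokinase, was lower at ZT12 (log2 fold -0.54 ± 0.13 SE, edgeR adjusted p = 0.0385). Over 14 alternative settings each kept its direction, and Tpi1 passed in 6 of them, Pfkfb1 in 7 and Pfkp in 6.

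Among the genes of the pathway with no pass in any of the 5 comparisons were the abundant enzymes of its lower part. For ZT12-SED over ZT0-SED the log2 fold was -0.85 ± 0.35 for Gapdh, the glyceraldehyde 3-phosphate dehydrogenase (SE, edgeR adjusted p = 0.102), and -0.89 ± 0.30 for Pkm, the pyruvate kinase of muscle (SE, edgeR adjusted p = 0.0682). It was -1.35 ± 0.49 for Pgam2, the muscle phosphoglycerate mutase (SE, edgeR adjusted p = 0.0808), and -0.87 ± 0.35 for Eno3, the muscle enolase (SE, edgeR adjusted p = 0.0977). After exercise at ZT12, Pgam2 had a log2 fold of 1.51 ± 0.48 (SE, edgeR adjusted p = 0.198). Its level was 3492 CPM in ZT12-EX 4 and 124 to 646 CPM in the other 5 ZT12-EX hearts, the group medians were 340 CPM in ZT12-EX and 286 CPM in ZT12-SED, and without the 3 libraries least like the rest, ZT12-EX 4 among them, the log2 fold of Pgam2 was 0.10. Pfkfb4, the fourth bifunctional enzyme, had a log2 fold of -0.01 ± 0.26 after exercise at ZT12 (SE, edgeR adjusted p = 0.99). The median log2 fold of the 19 was 0.27 after exercise at ZT12, 0.05 after exercise at ZT0 and -0.53 between ZT12-SED and ZT0-SED. With GC offsets these medians were 0.05, 0.03 and -0.21.

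How the 10 transcripts varied together over the 24 hearts is given as Pearson's r of log2 CPM centred on each flow cell, a description in which all points share library, depth and base composition. Aldoa and Pfkl had r of 0.97, Pfkl and Pfkm 0.93, and Ldha and Ldhb 0.88. Hk2 and Pfkfb2 had r of 0.84, while Hk2 and Pfkl had 0.32. Pfkfb3 had r between -0.66 with Ldhb and 0.43 with Pfkfb2 among the other 9. The genes most like Aldoa were Pkm (r of 0.99), Tecr (0.98) and Cyc1 (0.98). Those most like Pfkfb3 were Fzd4 (0.90), Mbd1 (0.89) and Acer2 (0.89). For Hk2 they were Micall1, Acss1 and Fhod3 (each 0.95), and for Pfkfb2 Appl2 (0.96), Map3k5 (0.95) and Ankrd33b (0.94).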

How the data were processed

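Gene counts were deposited by the authors as 1 table of raw counts per library, 24 in all. Per the submitters' processing notes, the tools were Trimmomatic 0.39 for trimming, HISAT2 2.2.1 for alignment to GRCm39 and featureCounts 2.0.1 (Subread) for counting. Neither their settings nor the annotation release, the use of strand or the treatment of reads with several matches are stated there. Per the labels' protocols, RNA was extracted with Trizol and libraries were made from poly-A RNA.

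Symbols, lengths and GC content were looked up by Ensembl identifier in the GENCODE vM21 annotation of GRCm38, and 257 identifiers, with 0.00128% of the counts, had no symbol. Where 2 rows carried 1 symbol, the row with more counts was used. The test on the counts was the quasi-likelihood test of edgeR 4.0.16 under R 4.3.3 (filterByExpr, TMM, robust fit with group and flow cell as terms, all 24 libraries, 15294 genes), with Benjamini-Hochberg adjustment over all tested genes and a threshold of 0.05. Log2 CPM values use a prior count of 2. Alternatives included DESeq2 1.42.0, each flow cell alone, GC offsets, a replicate block, other filters and scalings, and fits without named libraries. The fit was also run on simulated counts. These held neither the GC dependence nor the outlying libraries of the real data, so that run cannot show how the test handles them. Total counts were 9697334 to 23067191 per library, and no pair of libraries of a group matched within sampling noise (chi-square per degree of freedom at least 13.3 over 60 pairs).

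The 10 genes and all lists were chosen with earlier results of these data known. All 10 were tested in every comparison, and their fold changes in 4 comparisons are plotted. For most of the genes, the text prints the values of only a part of the comparisons. From 26 other genes of the pathway, those past the threshold are named, up to 4 per comparison with the smallest p, and always Gapdh, Pkm, Pgam2, Eno3 and Pfkfb4. Genes most like a member are the 3 with the highest correlation, printed for 4 members. A few further fits, which leave out each library in turn, were added after seeing the data. Libraries with skeletal muscle transcripts are those with a mean over 3 on the log2 CPM scale for 12 markers.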

Additional observations from a re-analysis of the deposited data

Results flagged for a closer look

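Of 40 sets of 6 hearts, 1 for each of the 10 enzymes in each of the 4 groups, 2 held a library that stood far from the other 5. Distance was judged on the log2 CPM scale, and chance flags about 1 set in 20. Pfkfb3 was 5.95 CPM in ZT12-EX 4, against 15.8 to 23.8 CPM in the other 5 hearts of its group. On the log2 CPM scale ZT12-EX 4 stood apart by a gap of 0.702 of the group's whole range. That library also had the lowest mitochondrial share of the 24, at 2.70%, and was 1 of the 3 least like the rest. Ldhb was 1616 CPM in ZT0-EX 5, against 1192 to 1332 CPM in the other 5 hearts of its group. The gap was 0.636 of the range on the log2 CPM scale. Gaps in CPM itself were not tested. ZT0-EX 5 was 1 of the 6 libraries with skeletal muscle transcripts. The part of mitochondrial share or of skeletal muscle transcripts in these values was not tested.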

How the results depend on the processing

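Depth was low for Pfkfb3, at 45 to 492 reads per library, and for Pfkl in the library with its fewest reads, at 32. A few settings moved the number of the 10 enzymes past the threshold. For ZT12-SED over ZT0-SED, 1 passed, against 5 with DESeq2's test, 7 on flow cell 1 alone, 5 when the 6 libraries holding skeletal muscle transcripts were left out, 2 with the muscle covariate, and 0 with library totals, with no filter, with no flow cell term, with the replicate block, on flow cell 2 alone and with the compared groups alone. After exercise at ZT0, 0 passed, against 1 with DESeq2's test, without the 3 libraries least like the rest and with the compared groups alone. Between ZT12-EX and ZT0-EX, 0 passed, against 2 without those 3 libraries. After exercise at ZT12, the count was 0 under every alternative.

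The counts over all genes moved more. After exercise at ZT0 165 passed, against 85 with library totals, 267 with DESeq2's test, 51 with no flow cell term, 39 on flow cell 1 alone, 13 on flow cell 2 alone, 51 without those 6 muscle libraries, 381 without the 3 libraries, 88 with the muscle covariate and 413 with the compared groups alone. After exercise at ZT12 45 passed, against 25, 221, 10, 20 and 4 under the first 5 of these settings and 14 with the compared groups alone. For ZT12-SED over ZT0-SED 795 passed, against 234 with library totals, 2845 with DESeq2's test, 478 with no filter, 129 with no flow cell term, 6552 and 35 on flow cell 1 and 2 alone, 3133 without the muscle libraries, 437 without the 3 libraries, 1546 with the covariate and 243 with the compared groups alone. Between ZT12-EX and ZT0-EX 252 passed, against 85 with library totals, 535 with DESeq2's test, 62 with no flow cell term, 17 on flow cell 2 alone, 86 without the muscle libraries, 1017 without the 3 libraries and 379 with GC offsets. For the difference between both responses 0 passed, against 5 with DESeq2's test, 1 with no filter, 1 without the 3 libraries and 2 with GC offsets; the compared groups alone give no such test. The cause was not tested.

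Leaving out each library in turn gave 0 to 1 enzymes and 91 to 176 genes after exercise at ZT0, with 91 to 108 genes without ZT0-EX 2, 3, 4 or 5 or ZT0-SED 4 or 5. For ZT12-SED over ZT0-SED it gave 0 to 5 enzymes and 305 to 2808 genes, with 305 to 447 genes without ZT12-SED 1, 2 or 3 or ZT0-SED 1, 2, 3 or 4, and 5 enzymes and 2808 genes without ZT0-SED 6. These fits were chosen after seeing the data. With the replicate number as a block, 160 genes passed after exercise at ZT0, 31 after exercise at ZT12, 0 for the difference between both, 608 for ZT12-SED over ZT0-SED and 220 for ZT12-EX over ZT0-EX, and Pfkfb3 in sedentary mice had a log2 fold of 0.89 (edgeR adjusted p = 0.0506). Whether the numbers pair the hearts was not settled. Correlations of the 36 same-numbered pairs ran from -0.45 to 0.78, with 15 over 0.1, and hearts with different numbers were not compared. For single genes, 81 values changed sign under another setting, none of them a called value, 40 passed newly and 29 lost their call. The mean log2 ratios of isoenzymes moved by less than 1 SD in all 64 alternatives. Each alternative kept at least 3 of the 6 libraries of a group, and the yardstick was the SD of those 6. A move of 1 SD was therefore not possible, and this count cannot show whether the ratios were stable. Pfkl to Pfkm separated the flow cells in all 4 groups, as described above.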

Other observations

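Gapdh, whose product oxidises glyceraldehyde 3-phosphate and whose transcript is often used as a reference in quantitative PCR, spanned 103 to 1422 CPM over the 24 hearts, and it was singled out after its values were seen. On flow cell 1 it was 307 to 801 CPM in ZT12-EX, 103 to 289 CPM in ZT12-SED, 921 to 1239 CPM in ZT0-EX and 739.8 to 964 CPM in ZT0-SED. On flow cell 2 it was 1030.1 to 1422 CPM in ZT12-EX, 1001 to 1242.5 CPM in ZT12-SED, 1161 to 1342 CPM in ZT0-EX and 891 to 1084 CPM in ZT0-SED. All 3 ZT12-SED hearts of flow cell 1 thus lay below the other 21 libraries. On flow cell 2 the 3 ZT0-EX hearts lay above the 3 ZT0-SED hearts, while the other pairs of groups there overlapped. How many of all tested genes separate in this way, with 3 hearts per group, was not counted.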
